A study of Mus musculus with 42 samples.

Results

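The genes of haemoglobin, the enzyme that starts haem synthesis in red cell precursors, and the 2 globins of nervous tissue were followed through the cerebellum of mice on intermittent fasting. The members were given by name and matched on the gene symbol in both deposited count tables: Hba-a1 and Hba-a2 (alpha chains of adult haemoglobin), Hbb-bs and Hbb-bt (beta chains), Alas2 (the erythroid aminolevulinate synthase), Ngb (neuroglobin) and Cygb (cytoglobin). All 7 were found among 35275 listed genes, and all 7 passed the filter on low counts in both tables. The rule itself uses gene names and no measured value, though the genes were proposed with earlier results of these data known.

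The animals were male C57BL/6 mice (C57/BL6NTac in the design text), raised on free access to food until 3 months of age. For the next 3 months they had food at all times (AL), fasted 16 h a day (IF16) or fasted 24 h on alternate days (EOD), and cerebellum was taken at 6 months of age. Other mice went through the same 3 regimens and then ate freely for 2 months, to 8 months of age (groups AL-R and IF16-R, with EOD-R as the last). Each group had 5 RNA-seq libraries of total RNA from frozen cerebellum, 30 in all, and 12 samples of H3K9me3 chromatin and input were not analysed here. Whether vessels were flushed of blood before dissection is not given in the sources used here, and neither is the hour of collection.

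Adult haemoglobin carries oxygen as a tetramer of alpha and beta chains, each holding haem. Mammalian red cells lose their nucleus, so their globin mRNA was made earlier, in erythroblasts of the marrow, and persists in young circulating red cells (reticulocytes). Alas2 catalyses the first and rate-limiting step of haem synthesis in those precursors. Neuroglobin is a haem protein of certain neurons, and cytoglobin is found in fibroblast-related cells and some neurons. Haemoglobin mRNA has also been described in neurons and glia, so its presence in brain tissue does not by itself name a source.

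The 4 haemoglobin genes lie in 2 clusters, and the sequences just before their starts are shown because the genes whose levels moved together across libraries can be compared there letter by letter. In the deposited tables Hba-a1 (ENSMUSG00000069919) is at 32283511-32284465 and Hba-a2 (ENSMUSG00000069917) at 32296489-32297298, both on the plus strand of chromosome 11. Hbb-bs (ENSMUSG00000052305, 103826534-103828096) and Hbb-bt (ENSMUSG00000073940, 103812524-103813996) are on the minus strand of chromosome 7. Alas2 (ENSMUSG00000025270) is at 150547375-150570638 on the X chromosome. The windows are the 250 bases before the RefSeq start of each gene in assembly GRCm38.p6: chr11:32283422-32283671 (plus strand) for Hba-a1, chr7:103827929-103828178 (minus) for Hbb-bs, chr7:103813924-103814173 (minus) for Hbb-bt and chrX:150547167-150547416 (plus) for Alas2. Capitals mark 4 motifs known from erythroid or core promoters, searched on both strands. GATAA is the core of sites known for GATA factors, CACCC of those of Krüppel-like factors and CCAAT of those of NF-Y, and ATATAA is a form of the TATA box.
Hba-a1: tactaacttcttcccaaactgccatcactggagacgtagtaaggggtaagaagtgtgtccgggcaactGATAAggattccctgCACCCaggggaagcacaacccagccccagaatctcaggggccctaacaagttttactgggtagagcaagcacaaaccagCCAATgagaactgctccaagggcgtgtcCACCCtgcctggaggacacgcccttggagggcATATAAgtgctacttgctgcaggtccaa
Hbb-bs: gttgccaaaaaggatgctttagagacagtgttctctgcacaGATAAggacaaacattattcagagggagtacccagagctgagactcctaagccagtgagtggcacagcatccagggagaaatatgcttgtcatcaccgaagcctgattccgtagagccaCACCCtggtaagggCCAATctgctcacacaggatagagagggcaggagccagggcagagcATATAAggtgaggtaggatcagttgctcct
Hbb-bt: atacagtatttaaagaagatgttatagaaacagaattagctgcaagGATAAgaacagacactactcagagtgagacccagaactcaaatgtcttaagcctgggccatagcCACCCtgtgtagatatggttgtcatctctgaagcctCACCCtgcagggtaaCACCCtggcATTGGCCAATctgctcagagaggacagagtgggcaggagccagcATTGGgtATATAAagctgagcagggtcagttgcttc
Alas2: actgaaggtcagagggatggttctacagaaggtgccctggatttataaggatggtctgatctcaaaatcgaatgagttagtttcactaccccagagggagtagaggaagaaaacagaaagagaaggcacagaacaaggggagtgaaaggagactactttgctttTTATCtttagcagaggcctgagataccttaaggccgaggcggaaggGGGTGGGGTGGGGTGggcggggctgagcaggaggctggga

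The window of Hba-a2 (chr11:32296242-32296491, plus strand) is not printed because it shares an unbroken run of 247 bases with that of Hba-a1. The longest run shared by Hbb-bs and Hbb-bt is 14 bases. These windows lie before the starts, so they say nothing about how alike the counted transcripts are, which was not compared. All 5 windows hold GATAA once, against 22.6% of the 32851 RefSeq windows of the same length. CACCC occurs 2 times in each alpha window, once in Hbb-bs and 3 times each in Hbb-bt and Alas2, and 52.0% of all windows hold it. CCAAT (33.8% of all windows) and ATATAA (9.1%) occur in the 4 haemoglobin windows and not in the window of Alas2. In Hbb-bt, 2 CCAAT matches on opposite strands adjoin as an inverted pair. These matches describe letters only. The deposited models of all 5 genes begin upstream of the RefSeq starts, so part of each window lies inside the deposited gene.

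Counted gene by gene, Cygb had the highest level per length among the members. Its median over the 30 libraries was 41.0 FPKM (reads scaled to gene length and library total), with a range of 32.3 to 66.0. Hbb-bs had a median of 18.0 FPKM (4.27 to 67.5) and Hba-a1 one of 17.3 (5.6 to 67.9), so these neighbours in the order overlapped along almost their whole ranges. Hbb-bt (2.4 FPKM, 0.849 to 12.1) and Hba-a2 (1.94 FPKM, 0.509 to 8.44) followed and also overlapped. Ngb had a median of 0.651 FPKM (0.311 to 5.57) and Alas2 one of 0.386 (0.147 to 1.55). The haemoglobin genes spread over a far wider range than Cygb. How reads that match both copies of a haemoglobin pair were counted is not given, so the level of each copy is uncertain.

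Several genes of red cell precursors were at or near 0. Gata1 (an erythroid transcription factor) had 0 to 10 counts per library, Rhag 0 to 6 and Hemgn 0 to 10, and Icam4 was at 0 in all 30 libraries. These 4 genes were picked from the red cell lists after their values were seen. Other genes of the same lists were counted in every library, among them Klf1 (9 to 28 counts), Slc4a1 (23 to 147), Tal1 (27 to 164) and Epor (291 to 560), also named after their values were seen. The embryonic globins were at or near 0: Hbb-bh0, Hbb-bh1 and Hbb-bh2 had no count in any library, Hba-x at most 1 and Hbb-y at most 4. Of the 9 further globins found in the tables, Mb (myoglobin) and Adgb (androglobin) passed the filter, with means of 0.337 and 0.118 FPKM. Defining markers of the labelled tissue were present, those of Purkinje cells (summed level of 7 genes 4483 to 6839 counts scaled to library size, CPM) and of granule cells (4601 to 5496 CPM).

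The groups below are compared in CPM, the counts scaled to a common library size after TMM normalisation within a table, with edgeR's quasi-likelihood test. A gene is called at a Benjamini-Hochberg adjusted p under 0.05 over all genes tested. Libraries held 26799825 to 36167435 counts each. In whole tissue, fewer cells of a type and less RNA per cell cannot be told apart.

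At the end of the regimens the haemoglobin genes differed more between libraries of one group than between groups. Hba-a1, the alpha gene with more counts, had 4.25, 26.8, 7.57, 25.7 and 25.8 CPM in AL, in the order of the replicates. In IF16 it had 13.8, 25.3, 28.5, 10.9 and 4.09 CPM, and in EOD 12.5, 8.78, 11.8, 23.2 and 10.4 CPM. AL split into 3 high and 2 low libraries, IF16 spanned about the same range and EOD lay within it, so the 3 groups overlapped.

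Hbb-bs, the beta gene with more counts, showed the same high and low libraries. It had 5.09, 24.5, 6.17, 22.3 and 25.6 CPM in AL and 16.9, 29.2, 40.5, 11.6 and 5.08 CPM in IF16. In EOD the values were closer together, at 15.2, 11.7, 15.1, 16.9 and 12.1 CPM. The ratio of the highest to the lowest library was 5.04 in AL, 7.98 in IF16 and 1.45 in EOD. No test of this spread was made.

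**Figure D1:**
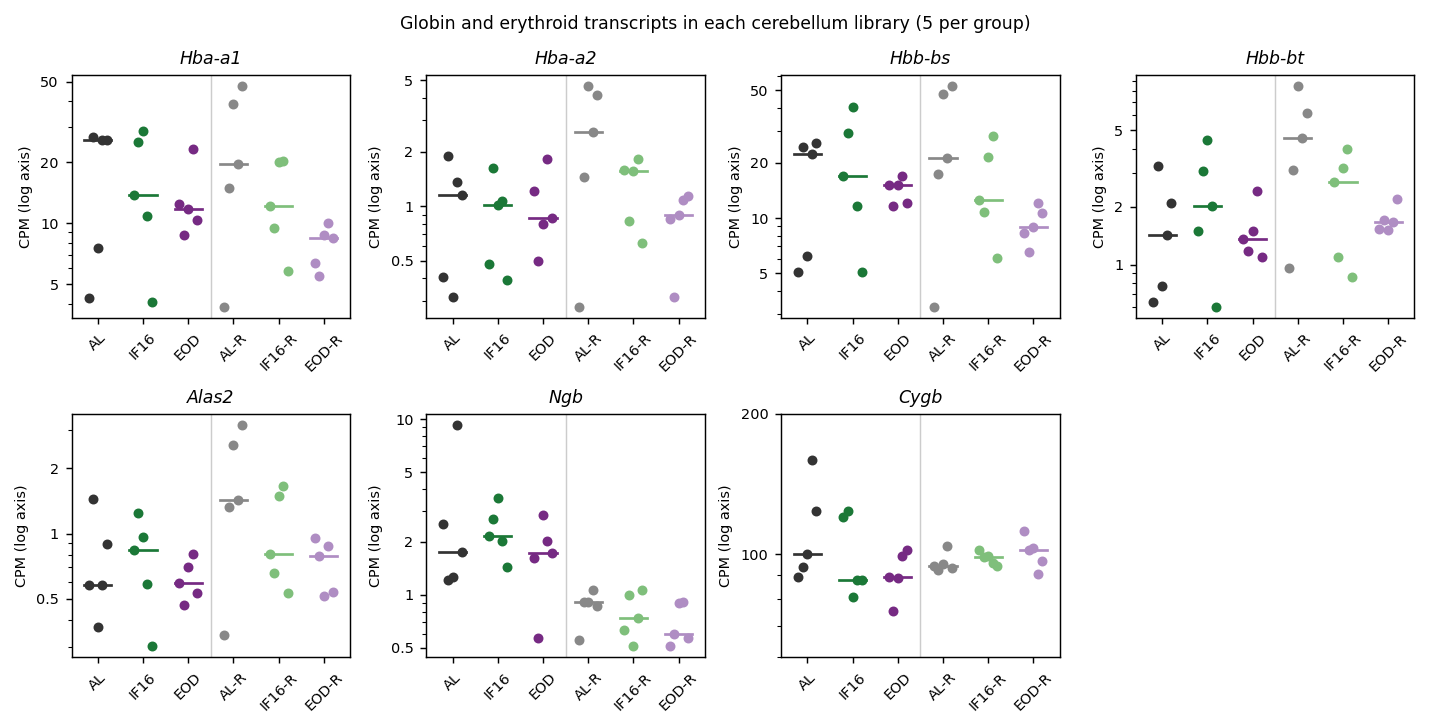
CPM of each gene (log axes, scaled to each gene) in the 30 libraries by group. Points are libraries, ordered by replicate number within a group, bars are medians of 5, and the grey line separates the 2 tables; the haemoglobin genes and Alas2 share their high and low libraries, AL-R spans the widest range of Hbb-bs (3.26 to 52.9 CPM) and EOD-R one of 6.54 to 12.1 CPM.

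Hba-a2 and Hbb-bt, the copies with fewer counts, and Alas2 were low throughout. Because the handling of reads that match both copies is not given, which copy was expressed more is not known. In AL, IF16 and EOD, Hba-a2 ranged from 0.314 to 1.9 CPM, from 0.391 to 1.64 and from 0.501 to 1.83. Hbb-bt ranged from 0.636 to 3.26, from 0.601 to 4.42 and from 1.09 to 2.42 CPM. Alas2 ranged from 0.371 to 1.45, from 0.301 to 1.25 and from 0.468 to 0.808 CPM, with 10 to 51 counts behind each value. The groups overlapped for each of these genes.

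The comparison of the daily fast with free feeding (IF16 against AL) called 0 of the 7 members. The background was 0.0483% of 16577 genes called and 9.92% with an unadjusted p under 0.05, which 0 of 7 members had. The log2 fold changes of the 4 haemoglobin genes and Alas2 lay between -0.15 (Hba-a2) and 0.51 (Hbb-bt), and their 95% intervals allowed differences as wide as -1.18 to 1.48. EOD against AL called 0 of 7 members, beside 0.0664% of all genes, and 0 of 7 had an unadjusted p under 0.05, beside 14.4%. EOD against IF16 also called 0 of 7 members, with 0% of all genes called and 3.62% at an unadjusted p under 0.05, again 0 of 7 among the members. The smallest p among these 21 values was 0.0589, for Cygb in EOD against AL (edgeR, adjusted p = 0.355).

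After refeeding the haemoglobin genes were highest and most scattered in AL-R and lowest in EOD-R. Hba-a1 had 3.85, 15, 38.9, 19.7 and 47.9 CPM in AL-R, in replicate order. It had 12.2, 9.52, 20.1, 20.4 and 5.82 CPM in IF16-R and 6.35, 5.5, 8.77, 10 and 8.49 CPM in EOD-R. Of the 5 AL-R libraries, 4 were above every EOD-R library and replicate 1 was below all of them, so the groups overlapped.

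Hbb-bs had 3.26, 17.4, 47.5, 21.3 and 52.9 CPM in AL-R, a 16.2-fold range within one group. In IF16-R it had 12.5, 10.8, 21.6, 28.2 and 6.02 CPM and in EOD-R 8.25, 6.54, 8.93, 12.1 and 10.6 CPM. The highest EOD-R library was below 4 of the 5 AL-R libraries.

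Hba-a2 had 0.277, 1.46, 4.66, 2.59 and 4.14 CPM in AL-R and 0.849, 0.316, 0.899, 1.08 and 1.14 CPM in EOD-R. Hbb-bt had 0.954, 3.09, 8.51, 4.55 and 6.12 CPM in AL-R and 1.53, 1.71, 1.51, 1.66 and 2.18 CPM in EOD-R. Alas2 had 0.339, 1.33, 2.58, 1.43 and 3.18 CPM in AL-R and 0.951, 0.79, 0.514, 0.88 and 0.536 CPM in EOD-R. IF16-R lay between or overlapped both, with 0.628 to 1.82 CPM for Hba-a2, 0.86 to 3.99 for Hbb-bt and 0.529 to 1.66 for Alas2. In each of the 3 genes, AL-R replicate 1 was the lowest library of its group and the other 4 were above all of EOD-R.

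In EOD-R against AL-R 0 of 7 members were called, beside 0.0426% of 16444 genes. An unadjusted p under 0.05 was reached by 5 of 7 members, beside 8.5% of all genes, and those 5 are the haemoglobin genes and Alas2, which move together across libraries and so are not 5 separate observations. Hba-a1 averaged 7.82 ± 1.85 CPM in EOD-R and 25.1 ± 18.0 in AL-R (SD, n = 5 each). Its log2 fold change was -1.68 (SE 0.452, 95% interval -2.63 to -0.73, edgeR adjusted p = 0.24). Hbb-bs averaged 9.28 ± 2.14 against 28.5 ± 21 CPM, with a log2 fold change of -1.62 (SE 0.489, edgeR adjusted p = 0.329). The log2 fold changes were -1.61 for Hba-a2, -1.43 for Hbb-bt and -1.27 for Alas2 (edgeR adjusted p 0.329, 0.329 and 0.403). In the 10 fits that each left out 1 library, all 5 genes kept an unadjusted p under 0.05 and none was called. Each of these fits kept at least 1 of AL-R replicates 3 and 5, the highest libraries.

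The unadjusted p values depended on which libraries were kept. Every pair of libraries within AL-R or EOD-R was left out in turn, 20 fits chosen after the data were seen. Without AL-R replicates 3 and 5 the log2 fold change was -0.71 for Hba-a1, -0.75 for Hba-a2, -0.59 for Hbb-bs, -0.74 for Hbb-bt and -0.50 for Alas2. None of the 5 genes then had an unadjusted p under 0.05 (edgeR adjusted p 0.795 to 0.863). AL-R replicates 3 and 5 held the highest values of these genes, so leaving them out had to shrink the difference. Hba-a1, Hba-a2 and Hbb-bs kept an unadjusted p under 0.05 in the other 19 fits, Hbb-bt in 18 of the 20 and Alas2 in 16. Hba-a1 and Hba-a2 were each called in 1 of the 20 fits, without AL-R replicates 1 and 2 (edgeR adjusted p = 0.0347 for both).

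**Figure D2:**
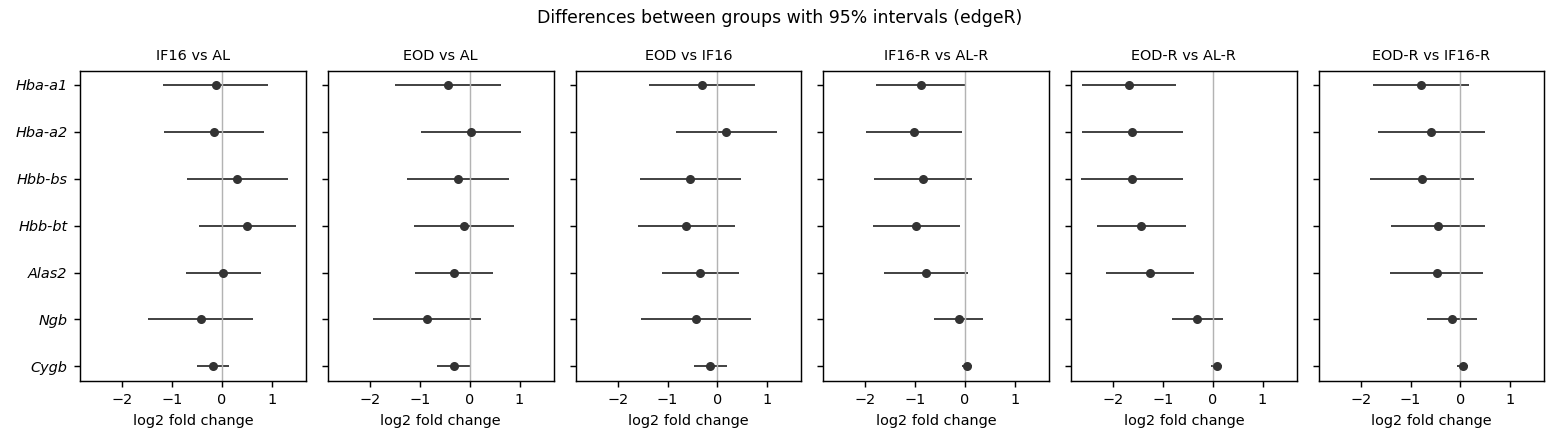
Log2 fold change of each gene (points) with its 95% interval (bars) from edgeR in the 6 comparisons within a table, 5 libraries per group. The intervals of the 4 haemoglobin genes and Alas2 lie below 0 in EOD-R vs AL-R, where no adjusted p was under 0.05, and those of Cygb after refeeding are narrow and include 0.

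In IF16-R against AL-R, 0 of 7 members were called, beside 0.17% of all genes. An unadjusted p under 0.05 was reached by 2 of 7, beside 9.58%: Hba-a2 with a log2 fold change of -1.03 and Hbb-bt with -0.98 (edgeR adjusted p 0.488 and 0.459). Hba-a1 was at -0.88, Hbb-bs at -0.85 and Alas2 at -0.79. With 1 library left out, Hba-a2 kept an unadjusted p under 0.05 in 5 of 10 fits and Hbb-bt in 6 of 10, and Hba-a1 ranged from -1.16 to -0.51 and Alas2 from -1.05 to -0.46. Without AL-R replicates 3 and 5 the values were 0.08 for Hba-a1, -0.17 for Hba-a2, 0.17 for Hbb-bs, -0.29 for Hbb-bt and -0.02 for Alas2, so those of Hba-a1 and Hbb-bs changed sign. Leaving out these highest AL-R libraries had to lower the AL-R level. Of the 20 fits without 2 libraries of AL-R or IF16-R, Hba-a2 had an unadjusted p under 0.05 in 8 and Hbb-bt in 10. Hba-a1, Hbb-bs and Alas2 did so in 6 each, and no other of these fits changed the sign of the 5 genes. EOD-R against IF16-R called 0 of 7 members, beside 0.0182% of all genes, and 0 of 7 had an unadjusted p under 0.05, beside 9.75%. Both comparisons against AL-R share the AL-R libraries.

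One fit of all 30 libraries held an interaction term, which asks whether the gap between a fasted group and its control was the same in both tables. For IF16, 0 of 7 members were called (0.0474% of 16877 genes), and 1 of 7, Hbb-bt, had an unadjusted p under 0.05 (7.21% of all genes), with a log2 difference of -1.48 (edgeR adjusted p = 0.668). For EOD, 0 of 7 were called (0.0119% of all genes), and 2 of 7 had an unadjusted p under 0.05 (10.3%). These were Hba-a2 at -1.64 and Cygb at 0.39 (edgeR adjusted p = 0.467 for both). With so few members past the threshold, these counts are no result about the members.

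The 4 haemoglobin genes and Alas2 formed one block across libraries. In the 15 libraries of the regimen phase, log2 CPM of Hba-a1 and Hbb-bs had a Pearson r of 0.953 and a Spearman rho of 0.964 (permutation p = 1e-05 for each, adjusted 4.67e-05 and 0.000105). After refeeding r was 0.989 and rho 0.993 (p = 1e-05 for each, adjusted 4.67e-05 and 0.000105). No smaller p than 1e-05 was possible with the resamples drawn, and 42 relations were computed among the members. All 10 pairs of these 5 genes held in both tables, with r from 0.713 to 0.953 in the first (Hba-a2 with Alas2 the lowest, adjusted permutation p = 0.00529) and from 0.885 to 0.989 in the second. Centring each gene on its group means left the r of Hba-a1 and Hbb-bs at 0.967 and 0.992, and leaving out the 2 libraries farthest from the median left it at 0.911 and 0.981.

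Alas2 followed both the alpha and the beta genes across libraries. With Hba-a1 its r was 0.784 at the end of the regimens and 0.935 after refeeding (adjusted permutation p 0.00124 and 7.64e-05). Its r with Hbb-bs was 0.796 at the end of the regimens and 0.944 after refeeding (rho 0.836 and 0.9; adjusted permutation p for r 0.00113 and 4.67e-05). Alas2 is on another chromosome than either haemoglobin cluster. Per 1000 haemoglobin counts there were 11.3 to 55.7 counts of Alas2 at the end of the regimens (median 21.8) and 23.9 to 56.2 after refeeding (median 30.4).

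**Figure D3:**
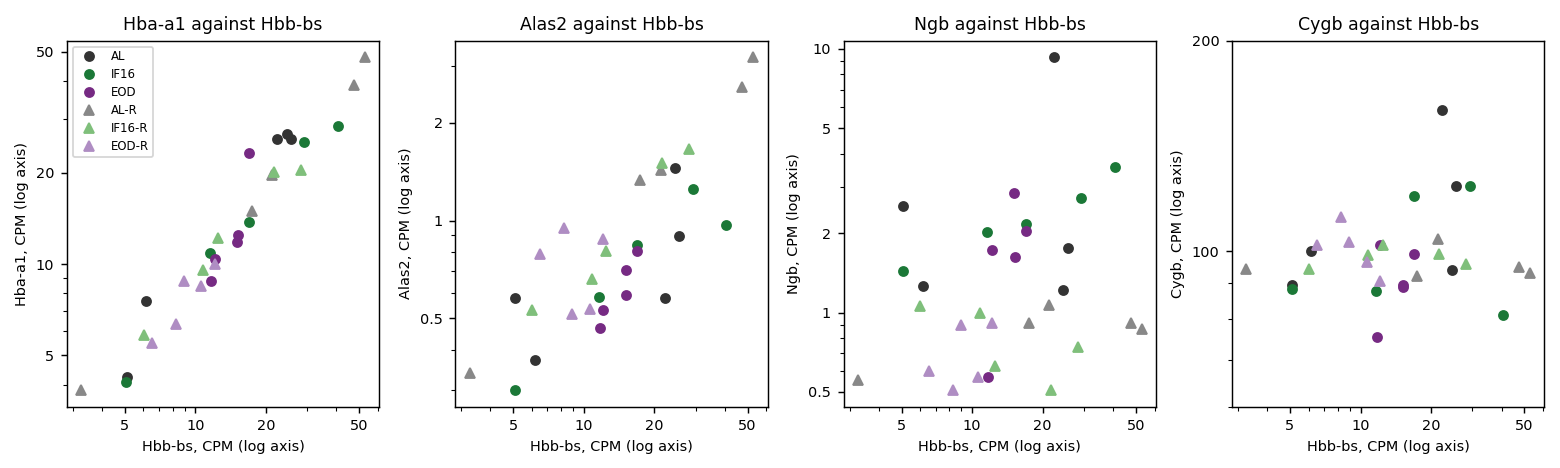
Hba-a1, Alas2, Ngb and Cygb against Hbb-bs, in CPM on log axes, 1 point per library (circles at the end of the regimens, triangles after refeeding). Hba-a1 lies along a line (r of 0.953 and 0.989 in the 2 tables), Alas2 follows more loosely, and Ngb and Cygb show no such line.

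Ngb and Cygb stood outside this block. Over the 20 relations of Ngb or Cygb with the 5 other genes, r ranged from -0.251 (Hba-a1 with Cygb, after refeeding) to 0.455 (the same pair, end of the regimens), and no adjusted permutation p was under 0.05. Ngb and Cygb themselves had an r of 0.611 in the first table (permutation p = 0.0192, adjusted 0.0383), but rho was 0.279 (permutation p = 0.315, adjusted 0.472). Without the 2 libraries farthest from the median of Ngb, r was -0.111, so the relation rests on those libraries. After refeeding r was -0.341 (rho -0.232; adjusted permutation p 0.353 and 0.56).

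No relation of the summed haemoglobin level with a marker list of other cells passed the adjusted threshold. It ranged from 10.4 to 56.5 CPM in AL, 10.2 to 74.4 in IF16, 22.1 to 44.4 in EOD, 8.34 to 111 in AL-R. In IF16-R it ranged from 13.3 to 54.5 CPM, and EOD-R had the narrowest range after refeeding, 14.1 to 24.8. Its r with 11 endothelial markers was -0.0873 at the end of the regimens (adjusted permutation p = 0.998) and -0.534 after refeeding (permutation p = 0.0411, adjusted 0.387; rho -0.179 and -0.504), and -0.262 without the 2 farthest libraries of the second table. Endothelial markers summed to 409 to 511 CPM over all libraries, a narrow range beside that of haemoglobin. The r with 11 choroid plexus markers was 0.319 and -0.489 (adjusted permutation p 0.794 and 0.489, rho -0.111 and -0.407). Without the 2 libraries of each table farthest from the median of summed haemoglobin it was -0.703 and -0.61. These markers ranged from 33.3 to 4300 CPM, and their part in the haemoglobin values was not tested. The family held 112 relations, of haemoglobin, Alas2, Ngb and Cygb with 13 marker lists and the length gradient, in 2 tables.

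Markers of other blood cells were followed beside haemoglobin. The 10 neutrophil markers summed to 4.44 to 14.9 CPM in AL-R. The sum was 3.77 to 6.53 CPM for IF16-R and 4.17 to 11.6 CPM for EOD-R. In IF16-R against AL-R, 6 of the 7 tested had lower values with an unadjusted p under 0.05, beside 9.58% of all genes in either direction. None was called, beside 0.17% of all genes (median log2 fold change -1.59, against 0.00 over all genes). In EOD-R against AL-R 2 of 7 were lower at that unadjusted level, beside 8.5% of all genes in either direction, with a median of -0.33. The r of summed haemoglobin with this list was 0.0342 and 0.302 in the 2 tables (adjusted permutation p 0.998 and 0.794; rho -0.0179 and 0.379). The 9 platelet markers summed to 18.5 to 23.4 CPM over the libraries after refeeding, and r with haemoglobin was 0.328 and -0.187 (adjusted 0.794 and 0.998). The 10 lymphocyte markers, of which 1 passed the filter, summed to 0.661 to 2.3 CPM over all libraries. Their r with haemoglobin was 0.387 and 0.0754 in the 2 tables (adjusted permutation p 0.716 and 0.998; rho 0.339 and 0.1), and 0.569 in the first once group means were taken out. With Alas2 r was 0.58 and 0.056 (adjusted permutation p 0.325 and 0.998; rho 0.354 and 0.104), and 0.786 in the first once group means were taken out. The part of other blood cells in the haemoglobin values was not tested further.

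None of the pathway genes around haemoglobin was called in any of the 6 comparisons within a table, and which cells expressed them was not measured. Of the haem synthesis list, 13 of 14 genes were tested, and the highest levels were those of Slc25a39 (a mitochondrial carrier, mean 50.5 FPKM) and Urod (uroporphyrinogen decarboxylase, 38.1 FPKM). Their log2 fold changes in EOD-R against AL-R were -0.04 and 0.10. Of the red cell membrane and cytosol list, 17 genes were tested, led in level by Prdx2 (peroxiredoxin 2) and Tmcc2, at 0.05 and -0.03 in that comparison. The median of the tested genes of this list was -0.01 there, against -1.43 for the 7 members and 0.00 for all genes.

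Of the other lists, 6 erythroid transcription factors, 17 genes of haem breakdown and iron handling and 14 of the oxygen response were tested. The ferritin chains Fth1 (1241 FPKM) and Ftl1 (373 FPKM), which store iron, differed by log2 0.08 and 0.07 in EOD-R against AL-R. The glucose transporter gene Slc2a1 (62.0 FPKM) had a log2 fold change of 0.46 in IF16 and 0.55 in EOD against AL (edgeR adjusted p 0.471 and 0.313), and Egln2, an oxygen-sensing prolyl hydroxylase (62.9 FPKM), one of -0.06 and -0.14. Lmo2 and Zfpm1, the transcription factor genes with the highest levels, were at 0.13 and -0.08 in EOD-R against AL-R.

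A pair of red cell genes was singled out after its values were seen. Slc4a1, the anion exchanger of the red cell membrane, averaged 2.47 ± 1.15 CPM in the AL-R libraries (SD, n = 5), 1.51 ± 0.35 CPM for IF16-R and 1.66 ± 0.135 CPM for EOD-R. Its log2 fold changes against AL-R were -0.71 and -0.58 (edgeR adjusted p 0.345 and 0.499). Klf1, an erythroid transcription factor, ranged from 0.652 to 0.833 CPM in AL-R and from 0.321 to 0.6 in EOD-R (log2 fold change -0.77, edgeR adjusted p = 0.235). It had 20 to 28 counts in AL-R and 10 to 19 in EOD-R. How many of all genes separate as far in this comparison was not counted. Neither Slc4a1 nor Klf1 was called. Over the whole erythroid transcription factor list 3 of the 6 tested were higher and 3 lower in EOD-R than in AL-R (median -0.03), with 1 in each direction at an unadjusted p under 0.05. Of the 17 tested red cell genes 8 were higher and 9 lower, with 1 and 2 at that level. Over all genes 8.5% were at that level, in either direction.

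The 2 copies within each haemoglobin pair did not keep a fixed ratio. Hba-a2 took 3.38% to 9.0% of the counts of both alpha genes at the end of the regimens and 5.43% to 11.8% after refeeding. Hbb-bt took 6.0% to 14.9% of the beta counts at the end of the regimens, with medians of 9.54% before and 15.1% after refeeding, where the range was 9.13% to 22.6%. The lowest share, 6.0% in AL replicate 4, had a Wilson 95% interval of 4.54% to 7.89%, and the highest, 22.6% in AL-R replicate 1, one of 16.4% to 30.3%. These intervals cover counting error only.

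**Figure D4:**
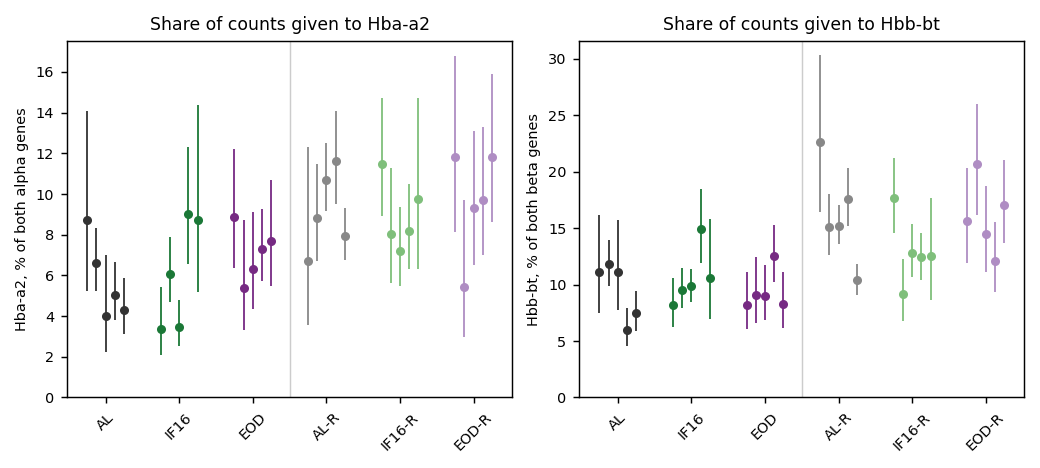
Counts of Hba-a2 as a percentage of both alpha genes (left) and of Hbb-bt as a percentage of both beta genes (right), 1 point per library in replicate order, with Wilson 95% intervals. Most libraries after refeeding (right of the grey line) lie higher, from 9.13% to 22.6% for Hbb-bt against 6.0% to 14.9%.

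The mean Hbb-bt share was 16.2% ± 4.46 in AL-R and 9.5% ± 2.57 in AL (SD, n = 5; exact permutation p = 0.0317, two-sided). It was 16.0% ± 3.2 in EOD-R and 9.42% ± 1.78 in EOD (n = 5; exact permutation p = 0.0159), and 12.9% ± 3.06 in IF16-R and 10.6% ± 2.56 in IF16 (n = 5; exact permutation p = 0.238). The mean Hba-a2 share was 9.17% ± 2.0 in AL-R and 5.73% ± 1.95 in AL (n = 5; exact permutation p = 0.0317). It was 8.93% ± 1.71 in IF16-R against 6.13% ± 2.72 in IF16, and 9.61% ± 2.6 in EOD-R against 7.11% ± 1.32 in EOD (n = 5; exact permutation p = 0.0952 for each). After adjustment over the 6 such tests the smallest p was 0.0635, so none passed. Age, refeeding and the table in which a library was counted cannot be told apart here. How reads that match both copies were counted is not given in the sources used here, and the counts of each copy are uncertain.

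The alpha to beta count ratio was steadier. It ranged from 0.656 to 1.3 at the end of the regimens (median 0.837) and from 0.691 to 0.978 after refeeding (median 0.861). EOD replicate 4 had the highest ratio, 1.3, with 838 alpha and 647 beta counts.

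Of the members, 4 differed between the control groups of the 2 tables, the AL-R libraries at 8 months and the AL libraries at 6 months of age. This comparison called 4 of 7 members beside 23.9% of 16877 genes, and 5 of 7 had an unadjusted p under 0.05, beside 40%. Among those called, Hba-a2, Hbb-bt and Alas2 move together across libraries and so are not separate observations. Hbb-bt rose (log2 fold change 1.5, SE 0.471, edgeR adjusted p = 0.0253), as did Hba-a2 (1.35, SE 0.49, adjusted p = 0.0456) and Alas2 (1.18, SE 0.404, adjusted p = 0.0353). Hba-a1 was at 0.47 and Hbb-bs at 0.76 (edgeR adjusted p 0.502 and 0.273). The difference between Hba-a2 or Hbb-bt and the other copy of its pair was not tested in this fit. Of the 10 fits that each left out 1 library, Hba-a2 was called in 2, Alas2 in 5 and Hbb-bt in 6.

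Those losses involved several libraries. Without AL-R replicate 3 the adjusted p was 0.142 for Hba-a2, 0.0888 for Hbb-bt and 0.093 for Alas2, and without AL-R replicate 5 it was 0.118, 0.0538 and 0.131 (edgeR). Without AL replicate 4 it was 0.0914, 0.0818 and 0.115, and without AL replicate 5 it was 0.0915, 0.0539 and 0.0718. Without AL replicate 3 it was 0.0932 for Hba-a2 and 0.072 for Alas2. Hba-a2 alone lost its call without AL replicate 1 (0.0733), AL-R replicate 2 (0.0511) and AL-R replicate 4 (0.0625). It also lost its call with no filter (edgeR adjusted p = 0.0541) and with DESeq2 (adjusted p = 0.0506). With a length gradient per library (how log2 CPM sloped with log2 gene length) as a covariate, 0 of the 7 members were called. That setting called 223 of the 16877 genes tested, in place of 4030, so 0 of 7 is no result about the members. Hba-a2 then had a log2 fold change of 1.26, and its adjusted p was 0.346. Age, refeeding phase and table cannot be told apart in this comparison.

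Of the lists, AL-R against AL called 1 haem synthesis gene higher and 4 lower of 13 tested, 3 red cell genes higher and 4 lower of 17, and 2 iron and haem breakdown genes higher and 5 lower of 17. Over the 6 pathway lists 20 of 69 tested genes were called, 29.0%, beside the 23.9% of all genes. With the length gradient as a covariate none of the 20 stayed called, a setting in which 223 of all 16877 genes were called. Those called lower without it had a median length of 1541.5 bases against 9380 for those called higher. Among the lower genes were the haem enzyme Urod (log2 fold change -0.37), Tmem14c (-0.35), Slc25a39 (-0.36), Prdx2 (-0.40), Mkrn1 (-0.24), Dmtn (-0.21), Ftl1 (-0.48), Fth1 (-0.34), Blvra (-0.32), Blvrb (-0.32) and Slc48a1 (-0.29). Higher were the membrane skeleton genes Sptb (0.39) and Ank1 (0.28), the mitochondrial iron importer Slc25a37 (0.20), Xpo7 (0.16), Lrp1 (0.31) and Ireb2 (0.31). Bnip3 of the oxygen response list was lower (-0.16), 1 of 14. The edgeR adjusted p of the list genes called in this comparison ranged from 0.00356 for Sptb to 0.0465 for Blvrb.

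Ngb was the member with the clearest difference between the tables. It had 2.54, 1.22, 1.26, 9.28 and 1.76 CPM in AL, 2.16, 2.71, 3.57, 2.02 and 1.44 in IF16 and 1.62, 0.568, 2.85, 2.03 and 1.73 in EOD. After refeeding it had 0.554, 0.91, 0.913, 1.07 and 0.87 CPM in AL-R. It had 0.627, 1.0, 0.509, 0.743 and 1.06 CPM in IF16-R, while EOD-R had 0.509, 0.6, 0.899, 0.912 and 0.568 CPM. AL replicate 4 held 306 counts where the other AL libraries held 43 to 88, and the counts after refeeding were 15 to 36.

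Every AL-R library was below every AL library in Ngb, which held for 4.75% of all genes tested. The log2 fold change was -1.89 (SE 0.436, edgeR adjusted p = 0.00698). Without AL replicate 4 it was -0.98 (edgeR adjusted p = 0.0639), and with the length gradient as a covariate -1.17 (adjusted p = 0.244). Within a table no comparison called Ngb: its log2 fold changes were -0.43 in IF16 and -0.86 in EOD against AL, and -0.13 in IF16-R and -0.31 in EOD-R against AL-R. Without AL replicate 4 the first pair became 0.49 and 0.06. Ngb (ENSMUSG00000021032) lies at 87097531-87102539 on the minus strand of chromosome 12 in the deposited tables.

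Cygb was the steadiest member. Cygb (ENSMUSG00000020810, chromosome 11, 116645595-116654313, minus strand) had 89.5, 94.0, 100, 159 and 124 CPM in AL, 120, 124, 81.0, 87.8 and 88.2 in IF16 and 89.4, 75.5, 88.8, 99.0 and 102 in EOD. After refeeding its coefficient of variation was 5.13% (AL-R), 3.02% (IF16-R) or 7.98% (EOD-R), and the group means were 95.9, 98.1 and 101 CPM. The log2 fold changes there were 0.03 for IF16-R (95% interval -0.07 to 0.13) and 0.08 for EOD-R (-0.03 to 0.18) against AL-R. At the end of the regimens they were -0.18 for IF16 and -0.32 for EOD against AL (edgeR adjusted p 0.683 and 0.355). Without AL replicate 4 they were -0.03 and -0.16, and with the length gradient as a covariate both were -0.06.

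At the end of the regimens Cygb went with the length gradient of the library over 15 libraries, with an r of -0.807 (permutation p = 0.00029, which became 0.0162 after adjustment) and a rho of -0.75 (0.00174 and 0.0974). It stayed at r = -0.712 once the 2 libraries farthest from the median of Cygb were dropped. Replicate 4 of AL, the highest in Cygb, had a gradient of -0.158. Cygb also had an r of 0.837 with oligodendrocyte markers, 0.79 with microglial and 0.756 with platelet markers in these libraries (adjusted permutation p 0.0162, 0.0231 and 0.0328; rho 0.532, 0.496 and 0.779, adjusted 0.535, 0.576 and 0.0974). After refeeding these r were -0.0439, 0.0908 and 0.381 (adjusted permutation p 0.998, 0.998 and 0.716; rho 0.104, 0.00714 and 0.336). Their part in the Cygb values was not tested. With the length gradient, Cygb had an r of -0.14 after refeeding (rho -0.254, adjusted permutation p 0.998 and 0.957). The summed haemoglobin level had an r of -0.268 with the gradient before refeeding and 0.0244 after it (adjusted permutation p 0.874 and 0.998; rho -0.243 and 0.0643).

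Genes with the most similar pattern were ranked by the lower of their Pearson r in the 2 tables among 13797 genes with at least 0.5 CPM on average, as a description. For summed haemoglobin the most similar gene outside the members was Hnrnpl (r of 0.582 and 0.612), followed by Nr1d1 (0.553 and 0.624), Prr3, Pi16, Safb, Prr14, Apba3 and Pdcd11 (lower r from 0.516 to 0.491). For Alas2 they were Tnxb (0.562 and 0.715), Jph4, Gcgr and Masp2. For Ngb they were Sst, the somatostatin gene (0.685 and 0.631), Crybb3, Sssca1 and Gdap1l1. For Cygb they were Smim19 (0.879 and 0.808), Pdk2, Hdac11 and Crmp1. The points of each ranking share libraries, depth and dissection.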

How the data were processed

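RNA-seq covered 30 cerebellum libraries. Raw read counts were deposited by the authors as 2 tables of 15 libraries each, for the regimens and for refeeding. They also deposited FPKM values, which match the counts after division by length and by the library's sum. The submitters' processing notes name STAR 2.5, HTSeq 0.6.1, DESeq2 2 and mm10, with no roles. Handling of read strand and of reads that match several genes is not given in the sources used here. Of 19622 symbols also in RefSeq GRCm38.p6, 96.5% started within 10 kb of the deposited position.

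Counts were tested with edgeR 4.0.16 in R 4.3.3 (quasi-likelihood, TMM, filterByExpr by group with its minimum count of 10, Benjamini-Hochberg over all genes tested, call at an adjusted p under 0.05). One fit was made per table and one over all 30 libraries for the interactions and AL-R against AL. Relations used log2(CPM + 0.5) and 100000 permutation resamples. The labels do not say whether libraries of a group came from separate mice, so p-values measure the spread between these libraries. For the 60 pairs within groups, chi-square per degree of freedom was 4.24 to 135 (genes averaging at least 50 counts), so no pair was one library deposited again, though separate preparations of one mouse cannot be told apart from separate mice. Alternatives were other scaling, no filter, the length gradient as a covariate, a replicate block, DESeq2 1.42.0, only the 2 groups compared, and each library left out. The script was tested on simulated data. The members and lists were chosen with earlier results of these data known. Named were all members, list genes that were called (a few are not reported here), the 2 genes of each pathway list with the highest mean FPKM, and the 8 or 4 genes most like a member. Outside this rule, Gata1, Rhag, Hemgn, Icam4, Klf1, Slc4a1, Tal1 and Epor and the embryonic globins were named after their values were seen. The share tests, the fits without each pair of libraries of a group, the length gradient for list genes and the relations with marker lists were added after the data were seen. Sequences come from a set of windows before RefSeq starts (GRCm38.p6), which held 5 of the 7 members. Sequences of Ngb and Cygb were not used here.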

Additional observations from a re-analysis of the deposited data

Results flagged for a closer look

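In groups of 5 libraries, a library was picked out where its gap to the nearest other exceeded 0.71 of the group's range, which chance alone does in about 1 of 20 groups. This held for 3 of the 42 sets of 5 values. Hba-a1 was at 23.2 CPM in EOD replicate 4, where the other 4 libraries had 8.78 to 12.5 CPM (gap 0.741 of the range); Hbb-bs was at 16.9 CPM there, near the other EOD libraries. Ngb was at 9.28 CPM in AL replicate 4, against 1.22 to 2.54 CPM in the others (gap 0.836). Cygb was at 104 CPM in AL-R replicate 4, against 92.3 to 95 CPM in the others (gap 0.78).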

How the results depend on the processing

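Values of single members under the other settings numbered 1127, not counting the fits without 2 libraries of a group. Of these, 1071 kept their direction and their side of the threshold. Another 26 lost a call (all in AL-R against AL) and 1 gained one, Cygb without AL replicate 1 (edgeR adjusted p = 0.0422). A further 29 changed sign, none with an adjusted p under 0.05 (edgeR). With the length gradient as a covariate these were Hba-a2 in EOD against AL (-0.0155), Alas2 in EOD-R against IF16-R (0.0535), Ngb in the EOD interaction (-0.0306) and Cygb in AL-R against AL (0.0601). The others came from leaving out 1 library: in IF16 against AL, Hba-a1 ranged from -0.41 to 0.13, Hba-a2 from -0.46 to 0.20, Hbb-bs from -0.0912 to 0.56, Alas2 from -0.20 to 0.39 and Ngb from -0.63 to 0.49. In EOD against AL, Hba-a2 ranged from -0.29 to 0.38, Hbb-bt from -0.35 to 0.31, Alas2 from -0.49 to 0.046 and Ngb from -1.09 to 0.0612. Hba-a2 in EOD against IF16 ranged from -0.13 to 0.49, and Ngb from -0.62 to 0.49 in the IF16 interaction and from -0.36 to 0.78 in that of EOD. The fits with 2 libraries of a group left out come on top of these counts. There Hba-a1 and Hba-a2 gained a call in EOD-R against AL-R without AL-R replicates 1 and 2 (edgeR adjusted p = 0.0347 for both). IF16-R against AL-R changed sign for Hba-a1 (0.0809) and Hbb-bs (0.1741) without AL-R replicates 3 and 5. Ngb did so without AL-R replicates 2 and 4 (0.017) or 3 and 4 (0.0159) and without IF16-R replicates 1 and 3 (0.117) or 3 and 4 (0.0505).

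Counts over all genes moved more, and the cause was not tested. In the order IF16 against AL, EOD against AL and EOD against IF16, they were 8, 11 and 0, and 62, 7 and 1 with the length gradient and 94, 133 and 1 with DESeq2. EOD against AL gave 7 with the size factors of DESeq2, and EOD against IF16 gave 1 with no filter and 1 with only those groups, where IF16 against AL gave 5. After refeeding, in the order IF16-R against AL-R, EOD-R against AL-R and EOD-R against IF16-R, they were 28, 7 and 3, then 0, 0 and 0 with the length gradient and 105, 87 and 123 with DESeq2. The last 2 gave 11 and 6 with no filter and 4 and 0 with only the groups compared. The interactions, 8 for IF16 and 2 for EOD, gave 36 and 6 with the gradient and 29 and 14 with DESeq2, and that of EOD 4 with no filter. AL-R against AL gave 223 with the gradient in place of 4030. Leaving out 1 library gave 3 to 10, 2 to 6 and 0 to 0 at the end of the regimens, 0 to 65, 0 to 16 and 0 to 71 after refeeding, 5 to 16 and 0 to 6 for the interactions and 830 to 6173 for AL-R against AL.

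With the replicate number as a block (replicate block), the counts were 5, 4 and 0 at the end of the regimens, 95, 45 and 40 after refeeding, 11 and 10 for the interactions and 3258 for AL-R against AL. The labels do not say what the numbers share, and not every same-numbered pair correlated over 0.1 (3 of 15 pairs did in the first table and 8 of 15 in the second), so the numbers were not taken as pairs. Deviations of same-numbered libraries correlated from -0.534 to 0.322 in the first table (0 of 15 best with their own number) and from -0.0545 to 0.427 in the second (7 of 15), a hint of pairing after refeeding. Under the block Hba-a2 and Alas2 in AL-R against AL had adjusted p of 0.0577 and 0.06. Depth limits Hba-a2, Alas2 and Ngb, with 9, 10 and 15 counts in their lowest libraries.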
